A study of Mus musculus with 12 samples.

Results

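The question was whether mouse embryonic fibroblasts that lack the protease HtrA2 answer rotenone differently from wild-type fibroblasts. All 12 of the 12 arrays of the study entered the comparison. They formed 4 groups of 3, namely vehicle and rotenone in wild type and vehicle and rotenone in the HtrA2 knockout. The cells were primary fibroblasts at passage 4, and rotenone was given at 1 µM for 4 h. For each probe set, the set of oligonucleotides that reads 1 transcript, the vehicle array was subtracted from the rotenone array of the same replicate number. This gave 3 differences in the knockout and 3 in the wild type. The knockout response minus the wild-type response is called the genotype difference here, and a positive value means that the transcript ended relatively higher in the knockout. The values are log2 signals, so that 1 unit is a 2-fold change.

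HtrA2, also called Omi, is a serine protease of the space between the mitochondrial membranes. It takes part in mitochondrial protein quality control, and after release into the cytosol it binds and cleaves inhibitor of apoptosis proteins. Mice without its activity develop a neurodegenerative disease with features of parkinsonism. Rotenone blocks complex I of the respiratory chain and also binds tubulin, and it is widely used to model parkinsonian damage. A blocked respiratory chain is known to activate the integrated stress response, in which phosphorylation of a translation initiation factor favours translation of the transcription factor ATF4. ATF4 in turn raises genes of amino acid supply and stress signalling.

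The knockout acts in the whole mouse, and the labels do not give its construction, the number of embryos behind each preparation or the origin of the replicates. The p-values therefore measure the spread between these arrays, which may be technical. In bulk RNA of this kind, fewer cells with a transcript and less transcript per cell cannot be told apart. Of 19 fibroblast genes, 18 had a mean level over the 40th percentile of those tested, against 5 of 12 leukocyte, 4 of 8 epithelial, 4 of 8 cartilage, bone and fat, 3 of 8 endothelial, 3 of 9 muscle and 3 of 9 neural markers. On the first principal component, with 44.7% of the variance, the 4 arrays numbered 3 lay between 22.6 and 30.9 and the other 8 between -20.1 and -5.69. Several values are therefore also given without replicate 3.

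Htra2 itself separated the genotypes and did not respond to rotenone in a way that passed the test. Its log2 level in wild-type cells was 9.04, 8.83 and 9.32 with vehicle and 9.09, 9.02 and 9.14 with rotenone, for replicates 1, 2 and 3. In knockout cells it was 7.57, 7.57 and 7.87 with vehicle and 7.66, 7.82 and 7.81 with rotenone. The 6 wild-type arrays were all above the 6 knockout arrays, and knockout minus wild type was -1.39 with vehicle and -1.32 with rotenone. The labels contradict themselves for the 3 wild-type rotenone arrays, which one field calls knockout and the title, source and description call wild type, and on Htra2 these arrays lay with the wild type. The genotype difference of Htra2 was 0.07 (95% interval -0.22 to 0.37). A second Htra2 probe set, at a mean level of 8.18, gave -0.17 (-0.55 to 0.21), and -0.47 (-0.83 to -0.10) without replicate 3, without passing the test.

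No transcript passed the test for a different rotenone response in knockout and wild-type cells. Of 22626 probe sets, 0 (0%) had an adjusted p under 0.05 in limma, a linear model fitted across all probe sets with Benjamini-Hochberg adjustment, and the smallest adjusted p was 0.9996. At an unadjusted p under 0.05 there were 497 probe sets (2.20%), 237 with the knockout higher and 260 with it lower. Evenly spread p-values would give 1131 probe sets, so 497 is no excess. For genes, each shown by its brightest probe set, the share was 1.87%. The smallest unadjusted p was 5.17e-04, for Parp8. Without replicate 3 the count was again 0, and 272 probe sets had an unadjusted p under 0.05.

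The same fit found many responses to rotenone itself. Averaged over both genotypes, 968 probe sets passed, 495 of them higher and 473 lower. Taken alone, the wild type gave 313 probe sets and the knockout 166. Without replicate 3 these counts were 1192 for the average, 442 for the wild type and 405 for the knockout. For genes, the shares that passed in the average of both genotypes were 2.42% higher and 1.83% lower. They were 1.08% and 0.436% in wild type, and 0.331% and 0.379% in the knockout. The unequal counts were not a measured difference between genotypes, since a transcript can pass in 1 genotype and narrowly miss in the other. In all, 108 probe sets passed in both genotypes, which was 34.5% of the wild-type calls and 65.1% of the knockout calls, and all 108 went the same way. A further 205 passed in wild type alone, and 204 of these had a knockout response of the same sign. Another 58 passed in the knockout alone, and 57 of these had the same sign in wild type. None of these probe sets passed the test of the genotype difference. Without replicate 3 the split was 247 in both genotypes, all with the same sign, 195 in wild type alone and 158 in the knockout alone.

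**Figure D1:**
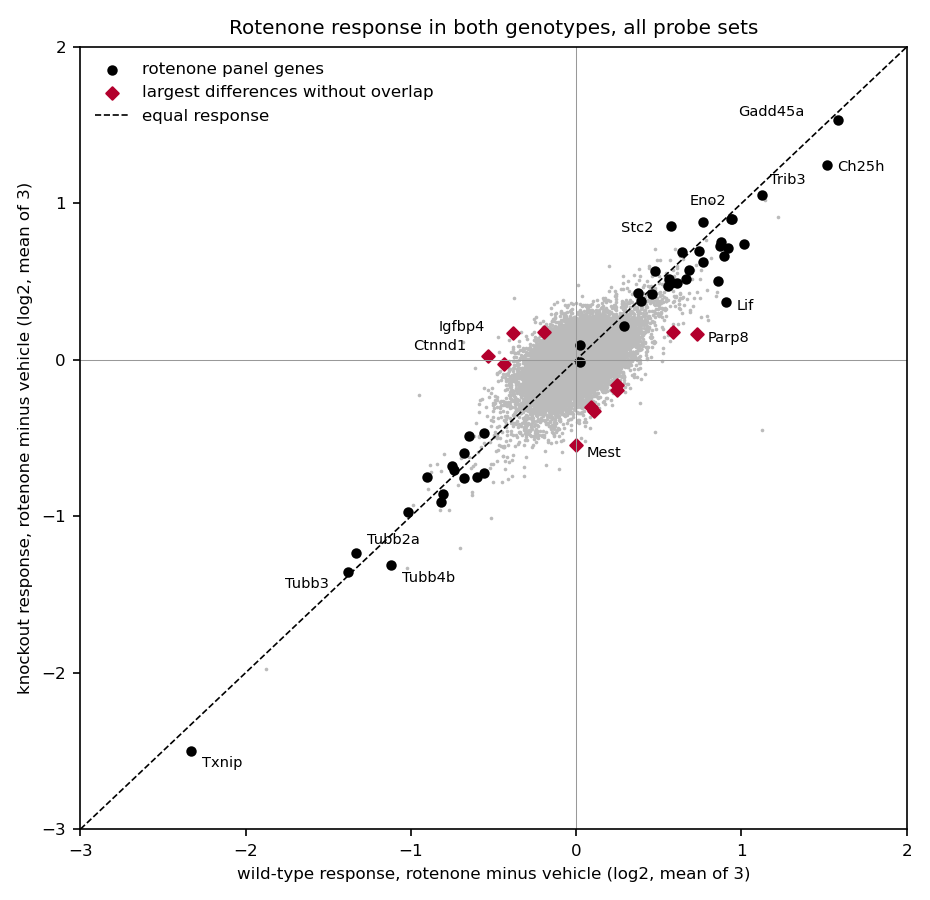
Each point is 1 of 22626 probe sets, with the mean rotenone response of 3 wild-type pairs on the x axis and of 3 knockout pairs on the y axis (log2). Panel genes (black) lie along the dashed line of equal response from Txnip to Gadd45a, and the 11 genes with the largest non-overlapping differences (red) lie off it by 0.37 to 0.56.

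How large a genotype difference could have gone unseen was read from the intervals. The median 95% interval reached 0.29 to each side of the estimate, and those of the 10th and 90th percentile 0.27 and 0.35. For 22610 probe sets (99.9%) the interval lay wholly within 1 log2 unit of zero, and for the remaining 16 it reached a 2-fold difference. Without replicate 3 the median interval reached 0.36. Across probe sets the mean responses of both genotypes had a Pearson correlation of 0.59 and a Spearman correlation of 0.45, and Pearson was 0.66 without replicate 3. Single pairs within wild type had correlations of 0.153 to 0.216, those within the knockout 0.297 to 0.325, and pairs of different genotype 0.0464 to 0.477. The range between genotypes thus covered both ranges within a genotype.

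Transcripts that rose with rotenone in the average of both genotypes had a somewhat larger median response in wild type. Over the 495 of them the median response was 0.42 in wild type and 0.33 in the knockout. The median genotype difference was -0.10, and -0.04 without replicate 3. In wild type the median of these transcripts was 0.34, 0.54 and 0.38 in pairs 1, 2 and 3, and in the knockout it was 0.37, 0.42 and 0.19. Wild-type pair 2 was the highest and knockout pair 3 the lowest, while pair 1 of both genotypes was close together. An unadjusted p under 0.05 for the genotype difference was reached by 32 (6.46%), of which 30 had the knockout lower. Over all probe sets the share was 2.20%. Over the 473 transcripts that fell, the median response was -0.33 in wild type and -0.36 in the knockout, with a median genotype difference of -0.04. Here 20 (4.23%) had an unadjusted p under 0.05. Both sets were chosen by a low p of the mean response in the same fit, which uses the same estimate of spread. Their shares above that of all probe sets are therefore not a finding about them. For 146 (29.5%) of the rising and 115 (24.3%) of the falling transcripts, every value inside the 95% interval of the genotype difference was smaller in size than the mean response.

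A panel of 45 rotenone-responsive genes, picked with earlier results on the mean response of these arrays known, gives single examples. Of these, 27 went up in all 6 pairs and 16 went down in all 6, while Lif and Egr1 were mixed. None passed the test of the genotype difference, and for 43 of 45 the 3 knockout pairs overlapped the 3 wild-type pairs. The exceptions were Stc2 and Arrdc4, whose knockout pairs all lay above the wild-type pairs. Over all probe sets 6.62% were without overlap, so 2 of 45 does not set the panel apart. Genotype differences ran from -0.54 to 0.28 with a median of -0.05, and 38 of 45 lay within 0.2 of zero. For 41 of the 45, every value inside the 95% interval was smaller in size than the mean response. The exceptions were Asns, Atf3, Egr1 and Lif. This was so for only 29.5% of the rising and 24.3% of the falling transcripts above, so the panel is not typical of them. Of the 29 panel genes with a mean response above zero, 24 had the knockout lower, also without replicate 3, and of the 16 below zero 7 did.

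**Figure D2:**
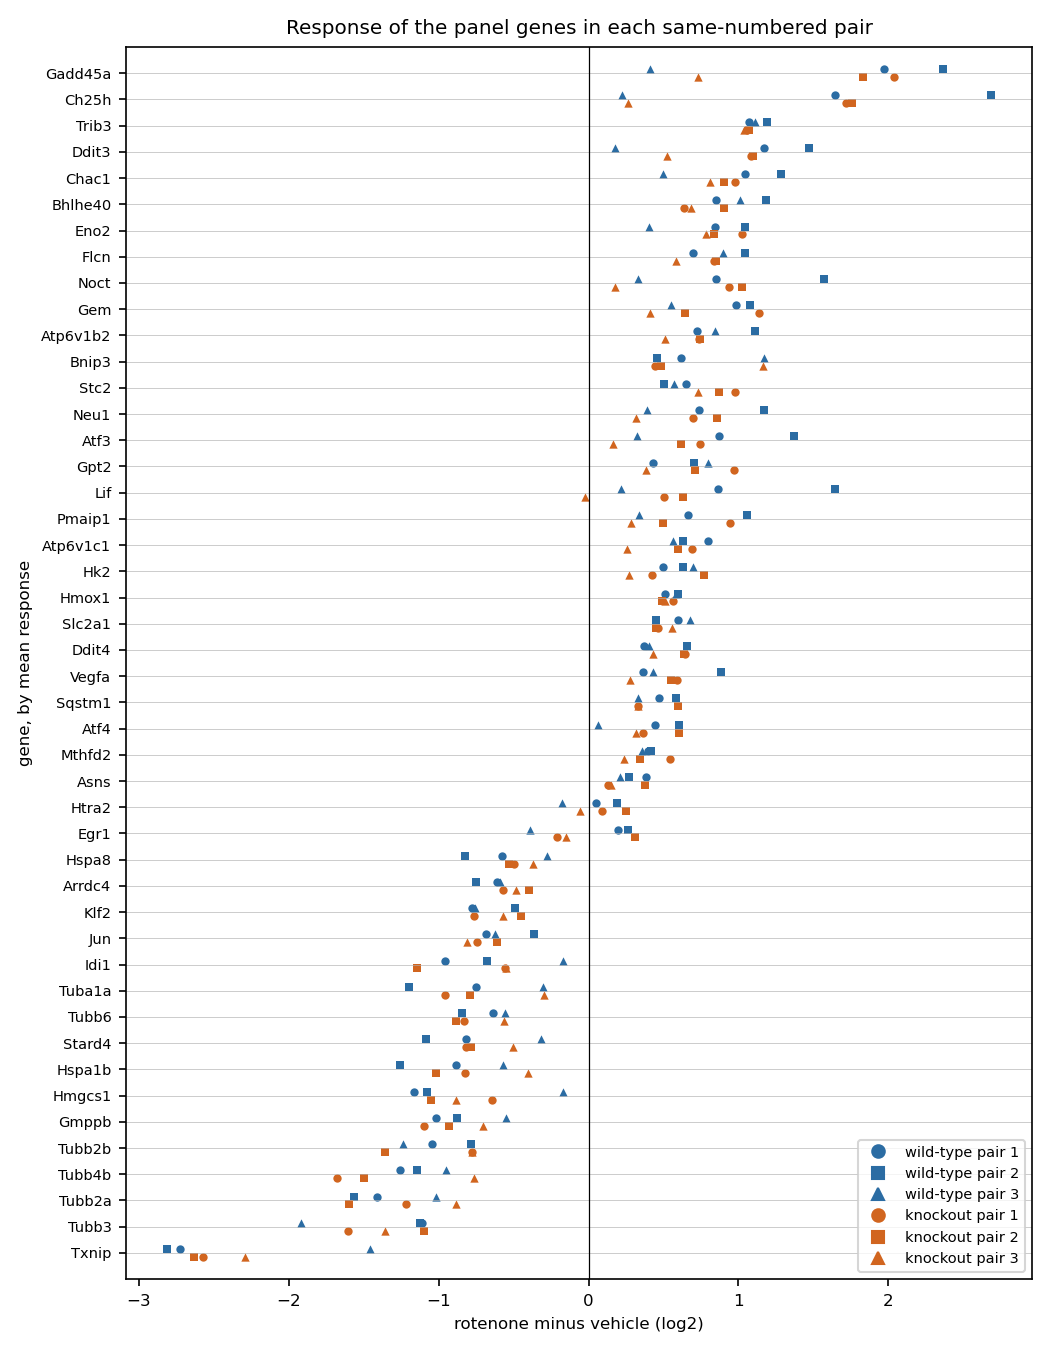
Rotenone minus vehicle (log2, x axis) of 46 genes (the panel and Htra2) in the 3 wild-type pairs (blue) and 3 knockout pairs (orange), sorted by mean response; the marker shape gives the replicate number. Blue and orange overlap in every row except Stc2 and Arrdc4, and for Gadd45a, Ch25h, Ddit3 and Noct both genotypes have their smallest response in pair 3.

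Among the panel genes that fell, Txnip had the largest response in both genotypes. Txnip encodes an arrestin-like protein that restrains glucose uptake, and its transcription follows the cell's supply of glucose metabolites. Its level in wild type was 10.66, 10.36 and 10.07 with vehicle and 7.93, 7.54 and 8.62 with rotenone. Knockout cells had 10.63, 10.61 and 9.87 with vehicle and 7.58 to 8.06 with rotenone. Every rotenone array was thus below every vehicle array, in either genotype. The fall was 5.03-fold in wild type (-2.33 ± 0.76, SD, n = 3) and 5.65-fold in the knockout (-2.50 ± 0.18, SD, n = 3). The genotype difference was -0.17 (95% interval -0.72 to 0.38), and 0.16 (-0.19 to 0.52) without replicate 3. Wild-type pair 3 had the smallest fall, -1.46, and the sign of the difference turned on it: without this pair the value was 0.27. A second Txnip probe set gave -0.10 (-0.59 to 0.39). The related arrestin Arrdc4 fell by 0.65 in wild type and by 0.48 in the knockout, with a genotype difference of 0.17 (-0.10 to 0.44). A second, dimmer Arrdc4 probe set gave -0.14 (-0.49 to 0.22).

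Tubulins, the subunits of microtubules, fell in both genotypes. The mRNAs of tubulins are known to be destabilised when free tubulin subunits are plentiful. Of 11 measured tubulin genes 9 passed as lower in the average of both genotypes, 7 in wild type and 8 in the knockout. The median response was -0.68 in wild type and -0.71 in the knockout, against 0.02 and 0.03 over all 12393 genes. Tubb3, a beta tubulin best known from neurons, was at 7.82, 7.63 and 8.78 in wild type with vehicle and at 6.71, 6.51 and 6.86 with rotenone. The knockout arrays were at 7.95, 8.01 and 8.63 with vehicle and at 6.34, 6.91 and 7.27 with rotenone. All 6 rotenone arrays lay below all 6 vehicle arrays, and the genotype difference was 0.03 (-0.39 to 0.44). For Tubb2a it was 0.10 (-0.28 to 0.48), for Tubb2b 0.05 (-0.31 to 0.41), and for Tubb6 -0.08 (-0.37 to 0.21). Tubb4b had -1.12 in wild type and -1.31 in the knockout, a genotype difference of -0.19 (-0.60 to 0.21), and -0.38 (-0.74 to -0.03) without replicate 3. Of the 5 other Tubb4b probe sets, 4 had the opposite sign, from 0.06 to 0.27. Tuba8, with the smallest p of the list, had -0.39 in wild type and -0.14 in the knockout and passed in neither, and its genotype difference was 0.25 (-0.03 to 0.53). The median of the 11 genotype differences was 0.03, and it was -0.15 without replicate 3.

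The integrated stress response was the list with the highest median among those that went up, and its medians in both genotypes were close. Of 23 measured genes 17 passed as higher in the average of both genotypes, 11 in wild type and 8 in the knockout. The median response was 0.45 in wild type and 0.47 in the knockout. The median genotype difference was -0.02 and stayed at -0.03 without replicate 3, with 11 genes positive and 12 negative. Trib3, a pseudokinase induced downstream of ATF4, had close values throughout. It rose by 1.07, 1.19 and 1.11 in wild-type pairs 1, 2 and 3, and by 1.06, 1.07 and 1.04 in the knockout pairs. Its genotype difference was -0.07 (-0.33 to 0.19), and a second probe set gave -0.12 (-0.41 to 0.18). Its vehicle level differed far more between replicates, from 8.26 to 9.78 in wild type, than its response did.

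For the next members the pairs of a genotype lay further apart than the genotype means. Chac1, which degrades glutathione, rose by 0.94 ± 0.40 in wild type and by 0.90 ± 0.08 in the knockout (SD, n = 3 each), a genotype difference of -0.04 (-0.41 to 0.32). Ddit3, which encodes the transcription factor CHOP, rose by 1.17 and 1.47 in wild-type pairs 1 and 2 and by 0.17 in pair 3. In the knockout its differences were 1.08, 1.10 and 0.52. The smallest response fell in pair 3 of both genotypes, and the genotype difference of Ddit3 was -0.04 (-0.57 to 0.50). Atf4 itself had 0.37 in wild type and 0.43 in the knockout and passed in neither alone. Asns, the asparagine synthetase, had 0.29 and 0.22. Atf3, a stress-induced transcription factor, had 0.86 in wild type and 0.51 in the knockout. The genotype difference of Atf3 was -0.35 (-0.81 to 0.11), the lowest of the list, and -0.44 (-0.82 to -0.07) without replicate 3. In all pairs together, 2 of the 3 knockout pairs, 0.74 and 0.61, lay within the wild-type range of 0.32 to 1.37.

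Stc2, a secreted glycoprotein induced through ATF4, was the panel gene whose interval left out zero. Its level in wild type was 7.86, 7.86 and 7.40 with vehicle and 8.51, 8.36 and 7.98 with rotenone. Knockout levels were 7.22, 6.94 and 7.33 with vehicle and 8.20, 7.81 and 8.06 with rotenone. The vehicle arrays of the knockout lay below those of the wild type, by 0.54 on average, while the rotenone arrays overlapped. Stc2 rose 1.49-fold in wild type and 1.81-fold in the knockout, a genotype difference of 0.28 (0.01 to 0.56) with a limma unadjusted p of 0.042 and an adjusted p of 0.9996. Without replicate 3 the interval was -0.01 to 0.70. A second Stc2 probe set, at a mean level of 7.79, gave -0.03 (-0.31 to 0.25).

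Promoters of 3 of these genes, which all had positive differences in the 6 pairs, are shown for the element through which ATF4 is known to act. Each window holds the 250 bases before the annotated start according to RefSeq (assembly GRCm38.p6), 5′ to 3′ on the strand of the gene. They are Chac1 at chr2:119350992-119351241 (+), Asns at chr6:7693210-7693459 (-) and Atf3 at chr1:191183334-191183583 (-). Capitals mark a match to the motif TGATGNAA, the form that C/EBP-ATF response elements bound by ATF4 share, on either strand.
Chac1: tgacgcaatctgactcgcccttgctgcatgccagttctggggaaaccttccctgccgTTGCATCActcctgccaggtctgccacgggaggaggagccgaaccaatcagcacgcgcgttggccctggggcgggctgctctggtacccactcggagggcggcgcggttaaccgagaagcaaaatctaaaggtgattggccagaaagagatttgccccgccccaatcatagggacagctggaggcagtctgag
Asns: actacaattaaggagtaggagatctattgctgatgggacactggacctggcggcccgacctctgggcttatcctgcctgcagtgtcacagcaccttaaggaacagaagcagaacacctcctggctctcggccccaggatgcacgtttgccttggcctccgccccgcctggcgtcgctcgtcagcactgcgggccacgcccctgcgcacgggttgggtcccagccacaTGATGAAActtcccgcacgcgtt
Atf3: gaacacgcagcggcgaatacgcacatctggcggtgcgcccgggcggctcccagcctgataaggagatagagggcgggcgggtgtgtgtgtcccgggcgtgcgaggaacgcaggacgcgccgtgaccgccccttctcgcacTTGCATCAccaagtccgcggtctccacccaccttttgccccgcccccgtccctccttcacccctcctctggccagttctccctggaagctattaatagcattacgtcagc
The match begins at -193 from the start in Chac1, at -23 in Asns and at -110 in Atf3, and it is read on the reverse strand in Chac1 and Atf3. Among the 32851 promoters that RefSeq listed, 3.45% held the motif. Counted by gene, 3.91% of 27025 genes held it in a listed promoter. Of the 23 stress response genes 21 had a listed promoter, and 9 of these held it. A match is a description of letters, and neither genotype's response was read from it.

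Signalling and early response genes had the widest spread. Gadd45a, a growth arrest gene, rose by 1.97, 2.37 and 0.41 in wild type and by 2.03, 1.83 and 0.73 in the knockout. Pairs 1 and 2 were high and pair 3 low in both genotypes, so that the genotype difference of -0.05 carried an interval of -0.87 to 0.77. Ch25h, an enzyme that makes a signalling oxysterol, had the widest interval of the panel, -1.24 to 0.70 around -0.27. Lif, a cytokine that signals to many cell types, had the lowest genotype difference of the panel. Its level in wild type was 8.58, 8.70 and 8.65 with vehicle and 9.44, 10.34 and 8.87 with rotenone. Knockout levels were 8.18, 8.24 and 8.60 with vehicle and 8.68, 8.87 and 8.58 with rotenone. Lif rose 1.87-fold in wild type and had 1.29-fold in the knockout, which did not pass there. The genotype difference was -0.54 (-1.09 to 0.02, limma adjusted p 0.9996), and -0.69 (-1.09 to -0.29, adjusted p 0.9999) without replicate 3. The pairs overlapped, since wild-type pair 3 had 0.21 and knockout pairs 1 and 2 had 0.50 and 0.63. A second, dimmer Lif probe set gave -0.17 (-0.60 to 0.25). Bhlhe40, a repressor of the circadian clock and of hypoxia signalling, had 1.01 in wild type and 0.74 in the knockout, a genotype difference of -0.27 (-0.56 to 0.02).

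Of 17 measured glycolysis genes 3 passed as higher in each genotype, and of 18 hypoxia targets 4 did in wild type and 2 in the knockout. Eno2, a glycolytic enolase, rose by 0.76 in wild type and by 0.88 in the knockout, with a genotype difference of 0.12 (-0.22 to 0.45). Slc2a1, the main glucose transporter of fibroblasts, rose by 0.58 and 0.49, with -0.08 (-0.35 to 0.18). Bnip3, a mitophagy receptor and hypoxia target, rose in pair 3 by 1.17 in wild type and 1.16 in the knockout, against 0.44 to 0.61 in the other pairs. Its genotype difference was -0.05 (-0.48 to 0.38). Hmox1, the heme oxygenase, rose by 0.56 ± 0.05 in wild type and 0.52 ± 0.04 in the knockout (SD, n = 3 each), with -0.04 (-0.30 to 0.22). Kdm3a, a histone demethylase and hypoxia target, had the smallest p of the hypoxia list: it rose by 0.75 in wild type and had 0.39 in the knockout, a genotype difference of -0.36 (-0.71 to -0.00). Its wild-type pairs were 0.34, 0.78 and 1.13 and overlapped the knockout range of 0.37 to 0.42, and without replicate 3 the difference was -0.15.

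The lysosomal proton pump acidifies lysosomes, and 7 of its 16 measured genes passed as higher in the average of both genotypes, 2 in wild type and 2 in the knockout. Atp6v1b2, its B subunit, rose by 0.89 in wild type and by 0.66 in the knockout, with a genotype difference of -0.23 (-0.52 to 0.07). The other Atp6v1b2 probe sets gave -0.02 (-0.38 to 0.35) at a mean level of 7.60 and 0.25 (-0.05 to 0.55) at 5.79. Flcn, which regulates lysosomal nutrient signalling, rose by 0.88 and 0.75, with -0.12 (-0.42 to 0.17). Its other probe sets had opposite signs, -0.31 (-0.59 to -0.03) and, at a mean level of 4.77, 0.41 (0.07 to 0.75). Of 19 genes of sterol synthesis 6 passed as lower in the average, 3 in each genotype. Hmgcs1, which makes the precursor of the pathway, fell by 0.81 in wild type and by 0.86 in the knockout. Its genotype difference was -0.05 (-0.50 to 0.39), although wild-type pair 3 had -0.17 and the other 5 pairs -0.65 or lower. Without replicate 3 it was 0.27, and the 3 other Hmgcs1 probe sets gave 0.07 to 0.21 with all pairs. Hspa1b, an inducible heat shock chaperone, fell by 0.90 and 0.75, with 0.15 (-0.23 to 0.54).

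**Figure D3:**
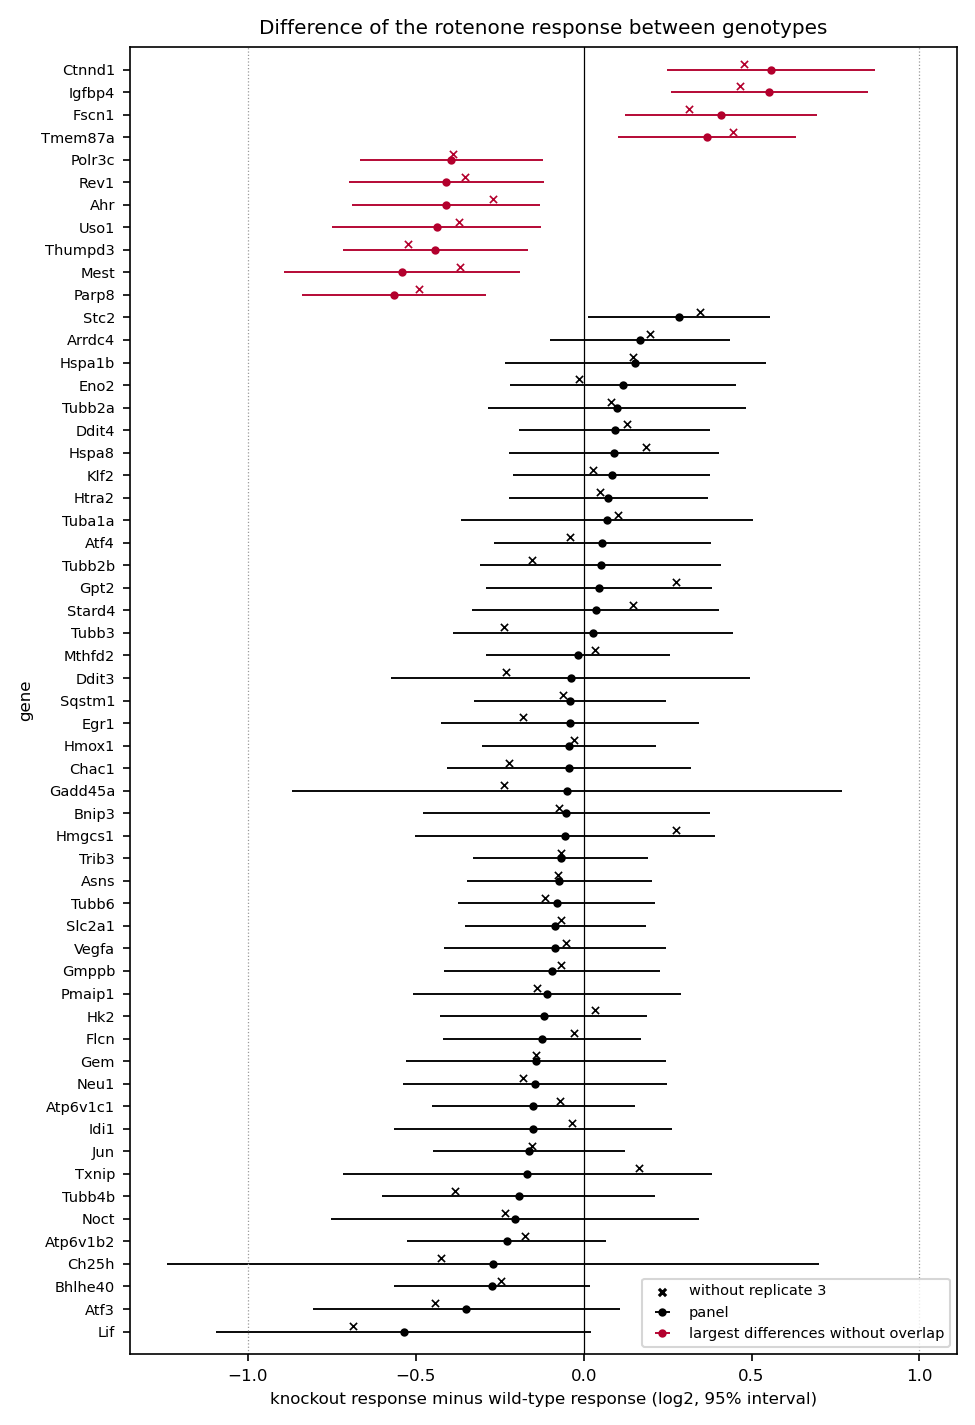
Genotype difference (knockout response minus wild-type response, log2) with its 95% interval for the panel with Htra2 (black) and for the 11 genes with the largest non-overlapping differences (red); crosses give the value without replicate 3 and dotted lines mark 1 log2 unit. Of the panel, Stc2 alone has an interval that leaves out zero (0.01 to 0.56), and Lif and Ch25h have intervals that pass -1.

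The genes nearest to a genotype difference were taken by rule: an unadjusted p under 0.01, no overlap between the 3 knockout and 3 wild-type pairs, the same sign without replicate 3, and a mean level above the 40th percentile. The rule found 4 genes with the knockout higher and 7 with it lower. It uses the tested contrast itself, so their values are a description. Over all probe sets, 1497 (6.62%) had no overlap between the 3 and 3 pairs, 779 with the knockout above and 718 below. The smallest p that an exact two-sided permutation test of 3 against 3 can give is 0.1. All 11 genes had limma adjusted p-values of 0.9996.

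In all 4 genes with the knockout higher, the 3 wild-type pairs were negative, and the knockout pairs lay around or above zero. Ctnnd1, a catenin that holds cadherins at cell contacts, was at 9.79, 9.82 and 10.37 in wild type with vehicle and at 9.14, 9.56 and 9.67 with rotenone. The knockout arrays were at 9.72, 10.26 and 10.22 with vehicle and at 9.88, 10.16 and 10.24 with rotenone. Ctnnd1 fell in each wild-type pair, while the knockout pairs lay on both sides of zero, and the genotype difference was 0.56 (95% interval 0.25 to 0.87), or 0.48 without replicate 3. Igfbp4, which binds insulin-like growth factors, was at 11.76, 11.87 and 12.09 in wild type with vehicle and at 11.51, 11.47 and 11.60 with rotenone. Knockout cells had Igfbp4 at 10.28, 10.97 and 11.99 with vehicle and at 10.60, 10.92 and 12.22 with rotenone. The knockout arrays thus spread from 10.28 to 12.22, far more than the genotype difference of 0.55 (0.26 to 0.85). All 5 other Igfbp4 probe sets had positive genotype differences as well, from 0.11 to 0.52. Fscn1, the actin-bundling protein fascin, had -0.43 in wild type and -0.03 in the knockout, a genotype difference of 0.41 (0.12 to 0.69), or 0.32 (-0.04 to 0.67) without replicate 3. Its 3 other probe sets gave 0.02, 0.07 and 0.20. Tmem87a, a membrane protein of the Golgi, had -0.19 and 0.18, a genotype difference of 0.37 (0.10 to 0.63).

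In the other direction, Parp8 had the smallest p of all probe sets. Parp8 belongs to the enzymes that attach ADP-ribose to proteins. Its level in wild type was 7.44, 7.56 and 7.82 with vehicle and 8.01, 8.38 and 8.62 with rotenone. In the knockout it was 7.75, 7.93 and 7.68 with vehicle and 7.97, 8.12 and 7.76 with rotenone. All 3 wild-type pairs rose by 0.57 to 0.82, and the 3 knockout pairs had 0.09 to 0.22. The genotype difference of Parp8 was -0.56 (-0.84 to -0.29), and -0.49 (-0.85 to -0.13) without replicate 3. Rev1, a polymerase that copies damaged DNA, had a like pattern, with 0.58 in wild type, 0.18 in the knockout and a genotype difference of -0.41 (-0.70 to -0.12), or -0.35 (-0.72 to 0.01) without replicate 3.

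The remaining 5 genes with the knockout lower had a negative difference in every knockout pair. Mest, an imprinted gene active in embryonic mesenchyme, fell by 0.54 in the knockout, where its pairs were -0.54, -0.63 and -0.46. In wild type its pairs were -0.18, -0.25 and 0.43, and the genotype difference of -0.54 (-0.89 to -0.19) became -0.33 without wild-type pair 3. Uso1, which tethers vesicles to the Golgi, had -0.32, -0.48 and -0.18 in the knockout and -0.02, -0.04 and 0.39 in wild type. Its difference of -0.44 (-0.75 to -0.13) became -0.30 without wild-type pair 3. Thumpd3, part of a tRNA methyltransferase, had 0.25 in wild type and -0.19 in the knockout, a genotype difference of -0.44 (-0.72 to -0.17). Polr3c, a subunit of RNA polymerase III, had 0.09 and -0.30, a difference of -0.39 (-0.67 to -0.12). Ahr, the receptor for dioxin-like ligands, had 0.25 and -0.16, a difference of -0.41 (-0.69 to -0.13), or -0.27 (-0.62 to 0.08) without replicate 3. The second Ahr probe set, at a mean level of 7.11, had the opposite sign, 0.29. The second probe set of Thumpd3 gave 0.14 at a mean level of 5.39, and that of Polr3c -0.06.

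**Figure D4:**
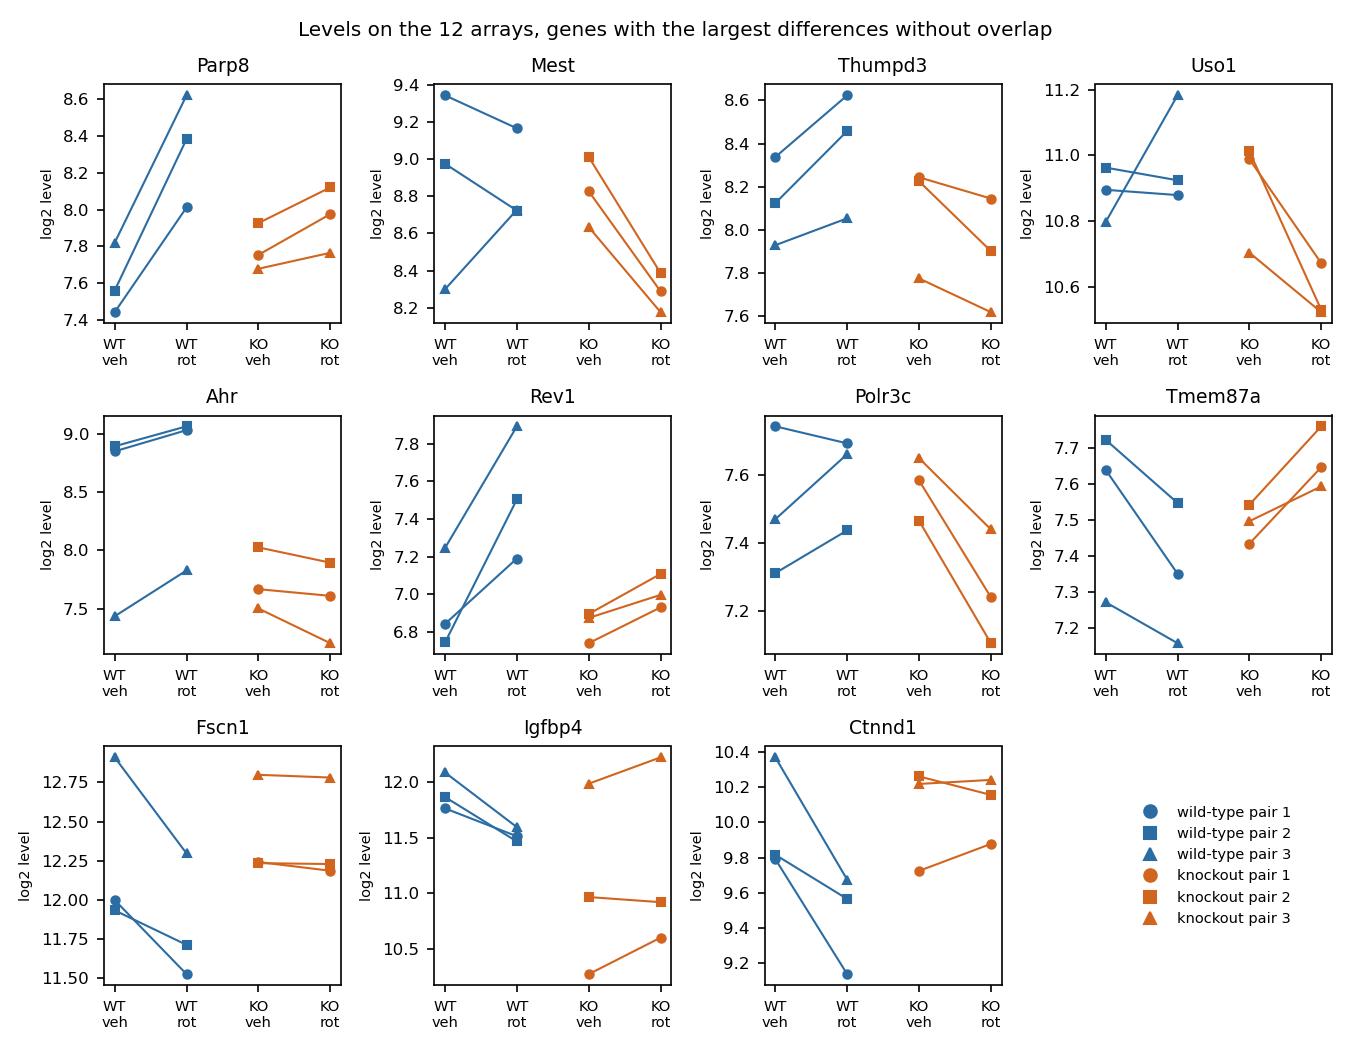
Log2 levels on all 12 arrays of the 11 genes with the largest non-overlapping genotype differences, each line joining the vehicle and rotenone arrays of 1 replicate number (WT, wild type, blue; KO, knockout, orange; the y axes differ between genes). For Parp8 the 3 wild-type lines climb by 0.57 to 0.82 and the knockout lines by 0.09 to 0.22, and for Igfbp4 in the knockout and for Ahr in wild type the levels of the 3 replicates span more than the change within any of their pairs.

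Some larger estimates outside that rule, chosen after their values were seen, rested on 1 pair. Ibsp, a bone matrix protein near the bottom of the scale at a mean level of 4.09, had the largest value of all probe sets, -1.58, on a probe set that is not its brightest. The brighter one gave -0.46 (-0.81 to -0.11). Wild-type pair 3 of Ibsp had 3.35, knockout pair 3 had -1.37, and the other 4 pairs lay within 0.1 of zero. Igfbp3, which binds insulin-like growth factors, had -0.94 (-1.78 to -0.10), with 1.93 in wild-type pair 3 and -0.77 to -0.23 in the other pairs. Without replicate 3 its value was -0.25. Midn had 0.73 (0.19 to 1.27), with -1.80 in wild-type pair 3, and 0.37 without replicate 3. In all, 32 probe sets had a genotype difference over 0.5 in size, and Ibsp alone exceeded 1.

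Gene lists were read by their median genotype difference, beside 0.00 over all 12393 genes. The 35 lists held 637 measured entries, and in 0 lists did a gene pass the test. Medians ran from -0.17 to 0.16, and 5 lists lay beyond 0.1 from zero. These were the complex I subunits, the subunits of complexes II to V, the cytosolic tRNA synthetases, the fibroblast identity genes and the endothelial markers. Without replicate 3 all 5 were within 0.1, while the tubulins (-0.15) and the pair of arrestins (0.18) lay beyond it.

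Complex I, the enzyme that rotenone blocks, had the highest list median. Of its 33 measured subunit genes 30 had the knockout higher, with a median genotype difference of 0.16, and 0 passed the test. The median of the list in wild-type pairs 1, 2 and 3 was -0.07, 0.03 and -0.54, and in the knockout pairs it was -0.09, 0.04 and -0.04. A single wild-type pair thus stood apart, and the other 5 pairs lay together near zero. With each gene set to its mean over the 12 arrays, the list was at -0.37 on the wild-type rotenone array of replicate 3 and at -0.08 to 0.15 on the other arrays. That array had the lowest level of the 12 for 26 of the 33 genes. Without wild-type pair 3 the median genotype difference was -0.02. Ndufc2, with the smallest p of the list, had -0.07, -0.19 and -0.39 in wild type and 0.09, 0.20 and 0.02 in the knockout, a difference of 0.32 (0.04 to 0.60).

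Complexes II to V followed the same pattern. Of their 37 measured genes 27 had the knockout higher, with a median of 0.11. Their median in wild-type pair 3 was -0.40, that of the other 5 pairs lay between -0.06 and 0.01, and the median genotype difference was -0.03 without wild-type pair 3. In the same pair fibroblast identity genes went the other way, with a median response of 0.33, against -0.10 to -0.03 in the other pairs. Endothelial markers, 5 of 8 below the 40th percentile, had 0.44 in that pair and -0.01 to 0.07 elsewhere. Of the 35 lists 6 lay higher on the rotenone array of that pair than on any other array and 3 lower. For every list some array is highest and some lowest, and such counts were not made for the other arrays. The knockout vehicle array of replicate 3, for instance, was lowest for the integrated stress response (-0.48) and highest for G2 and M phase genes (0.86). Epithelial markers were at 0.54 on the wild-type rotenone array of replicate 3, against -0.20 to 0.19 elsewhere. Hypoxia targets were at 0.42 against -0.17 to 0.18, and glycolysis genes at 0.40 against -0.18 to 0.25. The signal of the 3′ end minus that of the 5′ end of the control transcript Actb was -0.13 on this array, the lowest of a range up to 0.12, and that of Gapdh was 0.02 in a range of -0.06 to 0.18. The part of these values in the complex I result was not tested.

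Most lists, 24 of 35, had a median below zero. Of 18 cytosolic tRNA synthetases, which charge tRNAs with amino acids, 15 had the knockout lower, with a median of -0.11 (-0.05 without replicate 3). Yars, with the smallest p, had 0.31 in wild type and 0.09 in the knockout, a difference of -0.22 (-0.51 to 0.06). Of 25 lysosome and autophagy genes 22 had the knockout lower, with a median of -0.09 (-0.07 without replicate 3). Atg12, which takes part in forming the autophagosome, had 0.23 and -0.13, a difference of -0.36 (-0.68 to -0.04), or -0.26 (-0.64 to 0.12) without replicate 3. Its other probe sets gave -0.005 (-0.29 to 0.28) at a mean level of 8.08 and -0.27 (-0.57 to 0.03) at 3.70. The knockout was also lower for 17 of 21 mitochondrial chaperones and proteases, 14 of 17 clock genes and 24 of 32 G2 and M phase genes. The same held for 14 of 19 sterol genes, 19 of 27 G1 and S phase genes and 12 of 17 Parkinson disease and mitophagy genes. Medians of these lists lay between -0.08 and -0.04. Over all 12393 genes, 6176 had the knockout lower and 6217 had it higher. The lists in this paragraph were picked for uneven signs of this same contrast, and their genes share the same 6 pairs. The counts are therefore a description.

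Lists of genes tied to HtrA2 and to parkinsonism had medians of -0.05 to 0.02, with even or uneven signs. Over 25 measured BCL2 family and inhibitor of apoptosis genes the median genotype difference was -0.01, with 12 positive and 13 negative. Bak1, which opens the outer mitochondrial membrane, had the highest value, 0.56 (-0.01 to 1.14). It rested on -1.48 in wild-type pair 3, and without replicate 3 it was 0.19. Over 17 Parkinson disease and mitophagy genes the median was -0.05, with 5 positive and 12 negative. Lrrk2, a kinase mutated in familial Parkinson disease, had -0.28 (-0.59 to 0.03). Over 21 mitochondrial chaperones and proteases the median was -0.04, with 4 positive and 17 negative. Over 21 antioxidant genes the median was 0.02, with 13 positive and 8 negative.

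**Figure D5:**
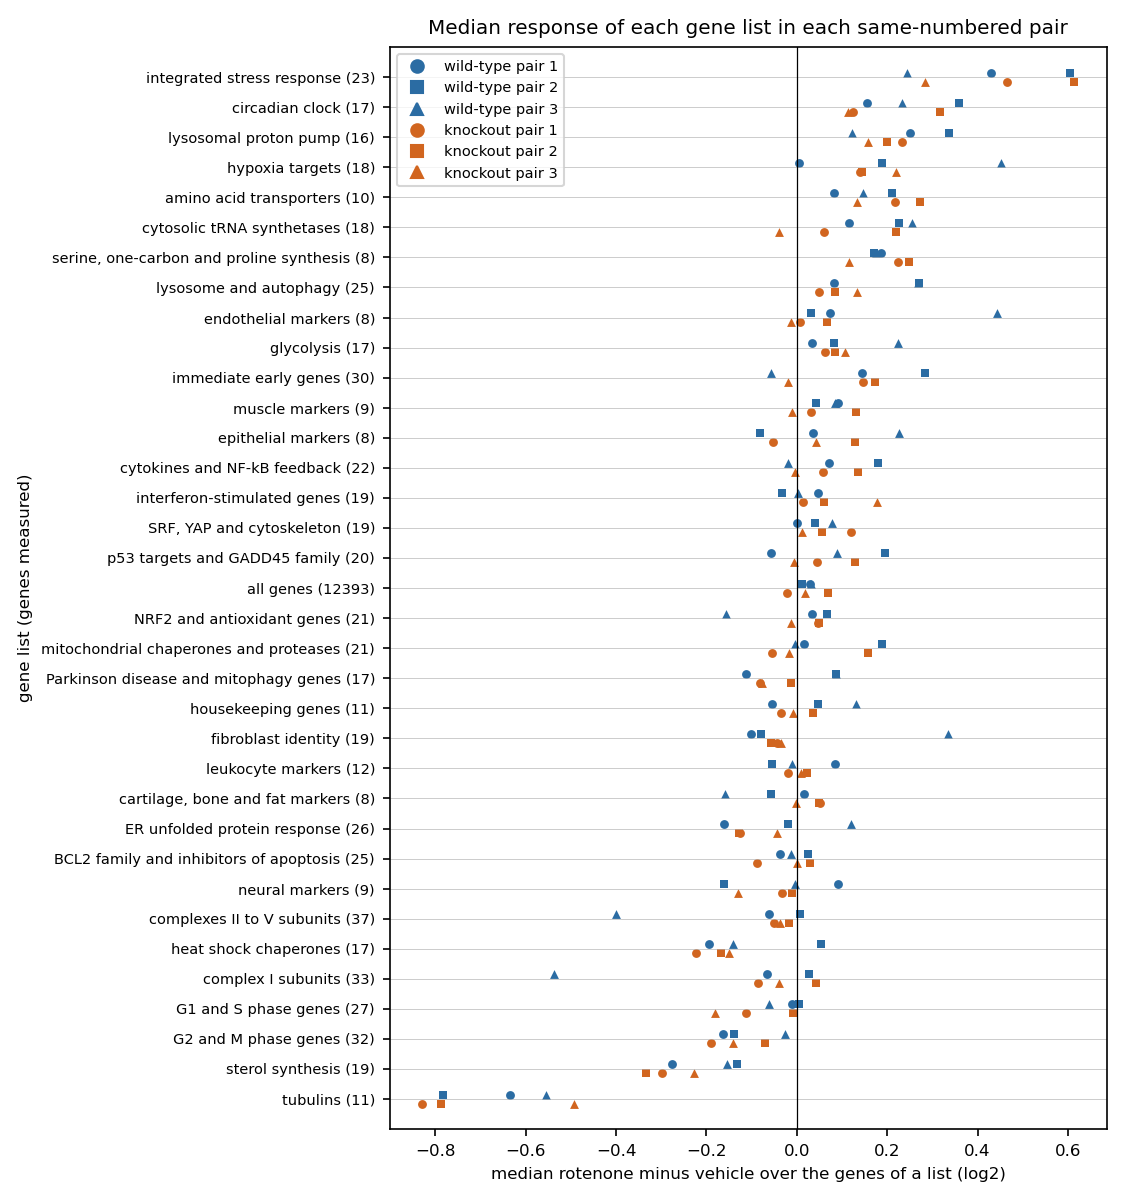
Median rotenone minus vehicle (log2, x axis) over the measured genes of each list, and over all 12393 genes, in the 3 wild-type pairs (blue) and 3 knockout pairs (orange); the number of genes is in parentheses, and the 2-gene arrestin list is left out. Wild-type pair 3 stands apart at -0.54 for complex I and at 0.44 for endothelial markers, while tubulins lie between -0.83 and -0.49 in all 6 pairs.

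Among other lists, single genes with the smallest p were of modest size. Ccne2, a cyclin of the G1 to S transition, had -0.09 in wild type and fell by 0.52 in the knockout, a difference of -0.43 (-0.74 to -0.11). Its wild-type pairs were -0.19, -0.26 and 0.17, and its knockout pairs were -0.40, -0.71 and -0.43, without overlap. Cry1, a repressor of the circadian clock, rose by 0.43 in wild type and had 0.06 in the knockout, a difference of -0.37 (-0.65 to -0.08). Plk2, a kinase induced by p53, rose by 0.62 and had 0.23, a difference of -0.39 (-0.74 to -0.04). Xbp1, a transcription factor of the unfolded protein response, had 0.06 and -0.25, a difference of -0.30 (-0.57 to -0.03). Slc16a3, a lactate exporter, had -0.36 and -0.00, a difference of 0.35 (0.08 to 0.63). None of these had an adjusted p under 0.05 in limma, and each was picked as the lowest p of its list. Without replicate 3 the intervals of all 5 held zero. Over the 88 named genes the interval left out zero for 26 with all pairs and for 13 without replicate 3, with 18 lost and 5 gained. Many of the 88 were picked by a low p of this same contrast, so the 26 is not a finding about them. An unadjusted p under 0.05 in limma was reached by 1 of the 45 panel genes and by 1.87% of all genes.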

How the data were processed

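RNA of 12 samples of primary fibroblasts was hybridised, as biotin-labelled cRNA, to Affymetrix expression arrays. The deposited values are log2 signals. Per the submitters' processing notes the authors used RMA, with a version and settings not given in the sources used. This method draws the arrays to a common distribution (medians 7.53 to 7.58), so that a change shared by most transcripts would be hidden. Nothing further was normalized. The number of arrays, 3 a group, limits precision.

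Of 22690 probe sets, 64 array controls were left out. The platform annotation gave 1 symbol to 20380, several to 691 and none to 1555. Each of 12393 genes is shown by its brightest probe set.

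The 6 same-numbered rotenone minus vehicle differences were fitted with limma 3.58.1 in R 4.3.3 (lmFit, eBayes, two-sided, Benjamini-Hochberg over 22626 probe sets, threshold 0.05), after testing on simulated data. The pairing followed the replicate numbers, because the comparison was set up on same-numbered differences. Same-numbered arrays deviated together from their group means (correlation 0.464 to 0.829 in all 6 pairs). The labels give only the numbers. Arrays of different number were not compared in this way. On the first principal component the arrays numbered 3 lay apart from all others, which alone can make such deviations correlate. The correlations therefore cannot show which of the remaining arrays belong together. Intervals are 95% intervals of limma. Alternatives covered the pairing, left-out replicates and pairs, a filter on dim probe sets, normalization, the variance model and the probe set of a gene. Named genes were the largest differences under the rule given with them, the panel, and the gene with the lowest p of each list (637 of 704 list entries were measured). The members and lists were chosen with earlier results of these data known.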

Additional observations from a re-analysis of the deposited data

Results flagged for a closer look

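For 7 of the named genes all 3 knockout pairs moved one way and all 3 wild-type pairs the other, as they did for 275 probe sets in all (1.22%). All 7 had been named for a low p of this same contrast, so their number is not a finding. None of them passed limma's test of the difference, with adjusted p-values of 0.9996. Tmem87a was lower with rotenone in every wild-type pair and higher in every knockout pair, with a genotype difference of 0.37. Ndufc2, a complex I subunit, had 0.32 and Acta2, smooth muscle actin, 0.16 in the same direction. The second Acta2 probe set, at a mean level of 6.96, was higher with rotenone in every pair of either genotype. Its genotype difference was -0.01. The second Ndufc2 probe set gave 0.23, with mixed signs within each genotype. Thumpd3 had -0.44, Ahr -0.41, the heat shock cochaperone Chordc1 -0.28 and the endothelial junction gene Cldn5 -0.27, each higher with rotenone in every wild-type pair and lower in every knockout pair. The second probe sets of Thumpd3 and Ahr had the opposite sign, with 0.14 and 0.29.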

How the results depend on the processing

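The count of probe sets with a different response was 0 under each of 18 alternatives, at adjusted p under 0.05 in limma. At an unadjusted p under 0.05 it was 497 as reported, 82 with no replicate block, 295 with an additive replicate block, and 827 with a replicate block across genotypes. It was 262 without dim probe sets and 254 with the mean over the probe sets of a gene, where 13575 and 12393 were tested. Leaving out 1 replicate or pair gave 272 (without replicate 3) to 1336 (without wild-type pair 1). The paired fit across genotypes also held the smallest adjusted p of any setting, 0.0966, for AY036118. Its genotype difference was 0.80, with an unadjusted p of 0.0125 as reported.

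Over 88 named genes and 18 alternatives, 1578 values were computed, of which 0 passed and 97 changed sign, all with a reported size of at most 0.27. The 11 genes of the largest differences changed sign in 0. Their rule took only genes without overlap, so leaving out a pair or a replicate could not turn the sign. Adjusted p-values of the 88 genes ran from 0.805 upward. List medians changed sign in 104 of 630 values. Half-widths of the 95% interval ran from 0.26 to 0.97 in the panel, and after adjustment no difference of any size passed.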
